A study of Mus musculus with 3 samples.

Results

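The Hoxb cluster is the group of 10 Hox genes on Chromosome 11 of the mouse, Hoxb13, Hoxb9, Hoxb8, Hoxb7, Hoxb6, Hoxb5, Hoxb4, Hoxb3, Hoxb2 and Hoxb1, which all lie on the plus strand in that order. CTCF occupancy around it was followed in 15 peaks of the LSK CTCF library, out of the 18945 peaks in the list. A peak was taken when it overlapped, by at least 1 bp, a window that reached 200 kb to either side of the span from Hoxb13 to Hoxb1. In mm10 the span ran from 96194316 to 96368256 (174 kb) and the window from 95994316 to 96568256 (574 kb), with genes taken from GENCODE M21. The window was set by gene positions alone, and no peak value was used to choose the members. Of the 15 peaks, 8 lay inside the span, 4 in the flank before Hoxb13 and 3 in the flank after Hoxb1.

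LSK cells are a population of adult bone marrow that includes the hematopoietic stem cells and multipotent progenitors. They were sorted from C57BL6 mice, which the study's methods describe as male and several weeks old. The sorted cells were positive for cKit and Sca1 and negative for CD4, CD8, IL7Ra, CD11b, Ly6g, CD45R and Ter119. DNA bound by CTCF was isolated with a CTCF antiserum and sequenced as 1 library. An input without antibody from LSK cells and one from megakaryocyte erythroid progenitors, C57BL6 as well, were not analyzed here. There was no treatment, no genetic change and no replicate, so each value describes 1 library and no test was made. None of the samples used here measured RNA, so the sorted cells could not be checked against marker genes in them. The study states the sequencing depth of the library, but the list gives no read counts, so the reads behind a single peak are not known from it.

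Hox genes encode homeodomain transcription factors that set position along the body axis, and their order on the chromosome follows the order of their expression from tail to head. In blood, genes of the A and B clusters are active in stem and early progenitor cells and are turned down as the cells mature. CTCF is a zinc finger protein that, together with cohesin, holds the ends of chromatin loops, and its sites inside Hox clusters are known as places where active and Polycomb-repressed chromatin meet. Its binding motif is not symmetric, so each site has a direction, and loops form mostly between sites that point toward each other.

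The DNA under 6 of the 8 peaks of the span is shown first, because the sites differ from one another in how well they match the CTCF motif and in which way they point. Each line gives the best match in the peak to a weight matrix for CTCF, a table of base preferences at 20 positions that was learned from 7818 motif sites in peaks of the same list on chromosomes without a Hox cluster. The 12 bases of the core motif are in capitals, with 20 bases to either side, read 5′ to 3′ on the strand of the motif and taken from mm10.
First peak between Hoxb13 and Hoxb9, minus strand, chr11:96223987-96224038: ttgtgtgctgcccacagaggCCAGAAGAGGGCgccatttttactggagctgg
Second peak between Hoxb13 and Hoxb9, minus strand, chr11:96235086-96235137: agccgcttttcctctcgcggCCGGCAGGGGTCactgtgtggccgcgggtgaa
Next peak between Hoxb13 and Hoxb9, minus strand, chr11:96240402-96240453: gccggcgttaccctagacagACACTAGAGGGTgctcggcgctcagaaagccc
Peak in Gm53, minus strand, chr11:96261733-96261784: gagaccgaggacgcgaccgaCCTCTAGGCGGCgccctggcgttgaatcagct
Peak between Hoxb9 and Hoxb8, plus strand, chr11:96278928-96278979: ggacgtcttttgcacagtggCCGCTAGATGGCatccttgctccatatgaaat
Peak in Hoxb6, minus strand, chr11:96294678-96294729: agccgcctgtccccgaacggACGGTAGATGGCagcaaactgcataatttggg

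Peaks of CTCF were closer together in the Hoxb cluster than over the chromosome and stopped before Hoxb4. The 8 peaks of the span came to 46.0 peaks per Mb (exact 95% Poisson interval 19.9 to 90.6, for counting error only), where Chromosome 11 as a whole held 12 per Mb and Chromosomes 1 to 19 and X together 7.19. The count of 8 fell to 3 both among the 9472 peaks ranked best by false discovery rate and among peaks at or above the median fold enrichment. The density of the chromosome in these shorter lists was not determined. At the density of Chromosome 11 in the full list, a stretch of 174 kb would hold 2.08 peaks. Over the whole window the density was 26.1 peaks per Mb (14.6 to 43.1), and in the flanks alone it was 17.5 (7.04 to 36.1), an interval that includes the value of the chromosome. The peaks of the span were spread unevenly. From Hoxb13 to the start of Hoxb9 there were 4 peaks in 77.1 kb, from Hoxb9 to the start of Hoxb4 another 4 in 46.8 kb, and from Hoxb4 to the end of Hoxb1 0 in 50 kb. The gap of 126 kb that holds this last stretch was not unusual over the whole list, as described below.

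**Figure D1:**
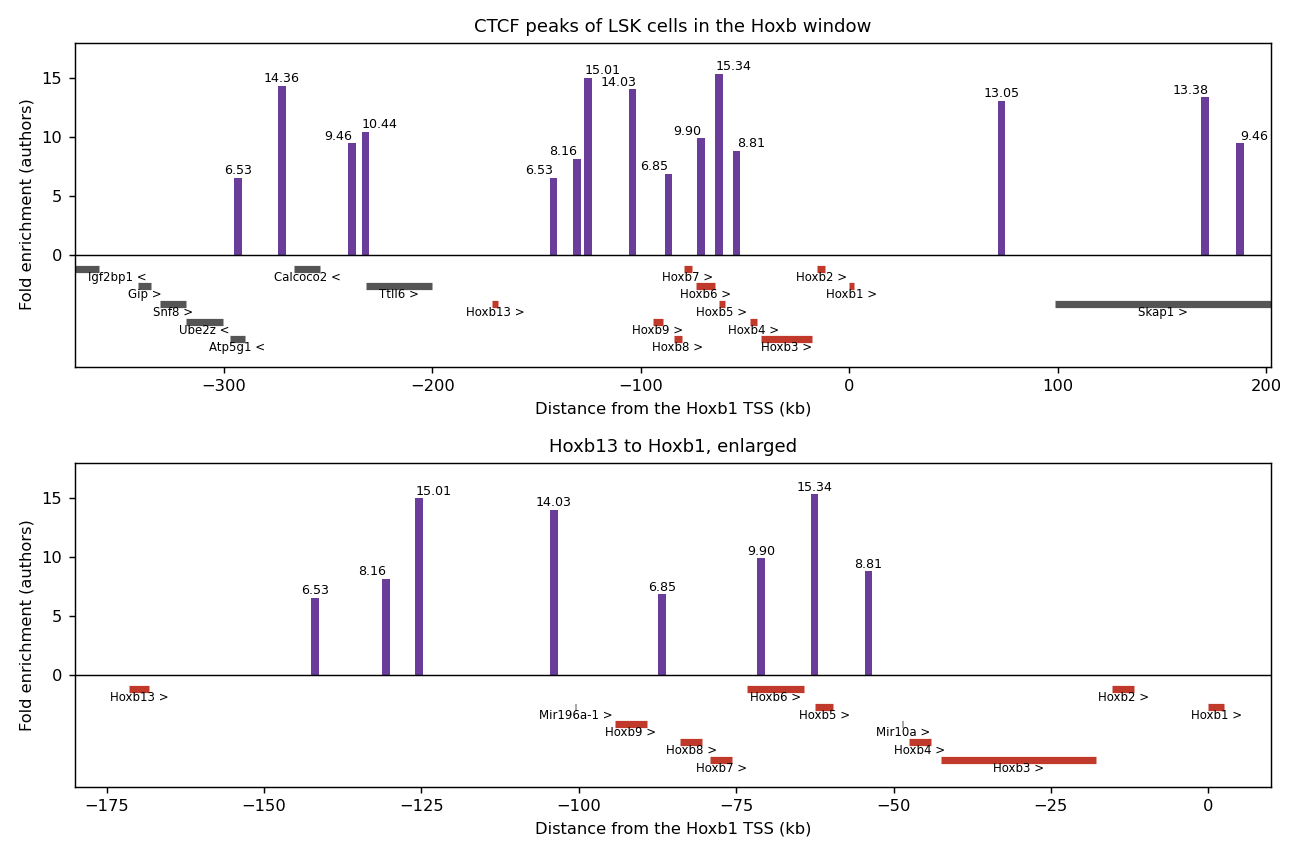
CTCF peaks of LSK cells around the Hoxb cluster, with the distance from the Hoxb1 transcription start site in kb on the x axis and deposited fold enrichments on the y axis. A bar stands for 1 peak, drawn wider than the peak itself and labelled with its fold enrichment, and the lines below are coding and miRNA genes (red for Hoxb, > for the plus strand). The upper panel covers the whole window and the lower one the cluster, where 8 peaks between 6.53 and 15.34 lie between Hoxb13 and Hoxb4 and none lie from Hoxb4 to Hoxb1.

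The 74.0 kb between Hoxb13 and Hoxb9 carried 4 peaks of very unequal height. Hoxb13, at the 5′ end of the cluster, is known for its role in the tail end of the embryo and in the prostate, and Hoxb9 acts in the thoracic region. Going from Hoxb13 toward Hoxb9, the fold enrichment was 6.53 in the peak from 96223563 to 96224225, with a −log10 p-value of 8.082. It was 8.16 from 96234849 to 96235493 (−log10 p-value 9.397) and 15.01 from 96240032 to 96240786 (21.307). The fourth peak, from 96261478 to 96262141, reached 14.03 (19.472). The first pair was therefore below the median fold enrichment of 10.1 over all peaks and the second pair above it, with ranks of 3001 and 3872 among the 18945.

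The fourth of these peaks lay in Gm53, a long intergenic noncoding RNA gene, with its midpoint in an exon and the peak over the start of one of its transcripts. It was also the nearest peak to Mir196a-1, 3023 bp upstream of that gene. Mir196a-1 encodes miR-196a, a microRNA known to cut the mRNA of Hoxb8. The remaining annotated entries of the interval, the noncoding RNAs Gm27898 and Gm27605 and the pseudogene Gm11539, had their nearest peaks at 23733, 23252 and 7847 bp.

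The part of the cluster from Hoxb9 to Hoxb4 held a further 4 peaks, of which the one at Hoxb5 was the strongest of the window. Hoxb8 and Hoxb6 are used in the laboratory to hold back differentiation of blood progenitors, and Hoxb5 is known to mark long-term hematopoietic stem cells. Between Hoxb9 and Hoxb8, CTCF was enriched 6.85-fold from 96278696 to 96279307 (−log10 p-value 5.278), and this was the second lowest −log10 p-value of the window. In an intron of Hoxb6, also within the antisense gene Hoxb5os, the peak from 96294339 to 96295100 was enriched 9.90-fold (−log10 p-value 9.449). The peak from 96302875 to 96303537 covered the transcription start site of Hoxb5 with a fold enrichment of 15.34 (21.492). The last peak of the span, from 96311333 to 96312140 between Hoxb5 and Hoxb4, had 8.81 (11.376) and lay 5025 bp upstream of Mir10a, the gene of a microRNA that is conserved at this place in Hox clusters. Only the peaks in Hoxb6 and at Hoxb5 overlapped a Hoxb gene record, and the remaining 6 lay between Hoxb genes.

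The peak at the Hoxb5 start was the place of the highest fold enrichment in the window, and this was the only start site of a Hoxb gene under a peak. It also had the highest ratio of observed to expected CpG among the 15, at 0.718, and none of its bases were marked as repeats.

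Of the 10 Hoxb genes, 6 had a peak within 10 kb of their transcription start site, where 29.3% of 21755 protein-coding genes had one. The 6 genes shared 4 nearest peaks, since Hoxb9, Hoxb8 and Hoxb7 all had the peak between Hoxb9 and Hoxb8 as their nearest, at 7239, 2598 and 7316 bp. The nearest peak was over the start of Hoxb5, 1863 bp downstream of the start of Hoxb6 and 6127 bp upstream of the start of Hoxb4, a gene known for expanding hematopoietic stem cells. The 3 genes at the 3′ end all had the last peak of the span as their nearest, so the distance grew with their place by construction. It was 11186 bp for Hoxb3 and 38385 bp for Hoxb2, both of which pattern the hindbrain, and 53612 bp for Hoxb1, which acts in 1 segment of the hindbrain. Hoxb13 was 29247 bp from its nearest peak. Within 1 kb of the start only Hoxb5 had a peak (8.59% of protein-coding genes had one), and within 50 kb 9 of the 10 did (67.7%). The other Hox clusters had similar or higher counts within 10 kb, 8 of 11 genes in Hoxa, 5 of 9 in Hoxc and 8 of 9 in Hoxd. The share was thus not particular to Hoxb. Neighbouring genes share peaks, so the 10 distances of the Hoxb genes are not independent. Part of the Hoxb count rested on weaker peaks: with the 9472 peaks ranked best by false discovery rate, 2 Hoxb genes had a peak within 10 kb. A shorter list leaves fewer genes near a peak by construction. The share of all protein-coding genes in that list was not determined.

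**Figure D2:**
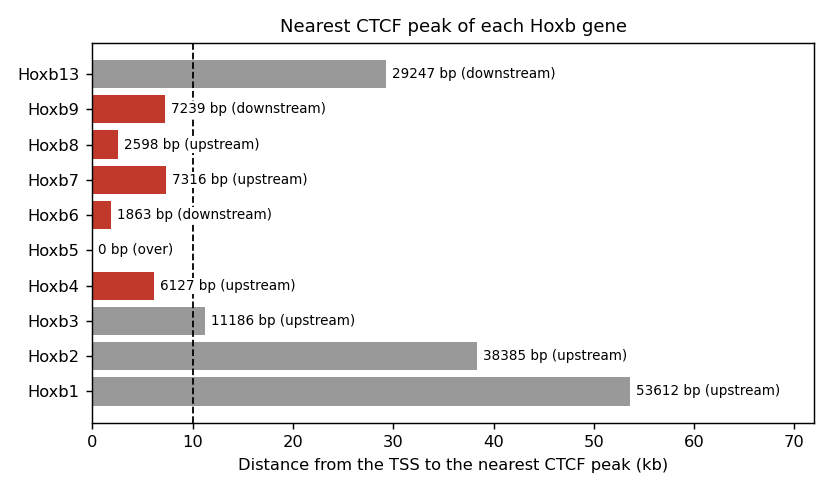
Distance from the transcription start site of each Hoxb gene to the nearest CTCF peak, in kb (x axis), with genes in their order along the cluster. Red bars are genes with a peak within 10 kb, the distance marked by the dashed line, and the labels say whether the peak is upstream or downstream. The 6 genes from Hoxb9 to Hoxb4 are within 10 kb, and Hoxb13, Hoxb3, Hoxb2 and Hoxb1 are not.

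The 3′ end of the cluster opened the longest stretch of the window without a peak, 126 kb from 96312141 to 96438531. It held Mir10a, Hoxb4, Hoxb3, Hoxb2 and Hoxb1 with the antisense genes Gm11536 and Hoxb3os. Over all chromosomes a stretch of this length was not unusual. Of the 18925 gaps between neighbouring peaks, 23.3% were at least as long, and the median gap was 43.2 kb. The peaks of the span lay much closer together, with a median gap of 10.6 kb. Gaps on Chromosome 11 alone were not determined, and its peaks were denser, at 12 per Mb against 7.19. The core motif was present without a mismatch at 1 place in the stretch, in the gene records of Hoxb3 and Hoxb3os, and with at most 1 mismatch at 35.

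The flanks carried 7 peaks, which sat at the genes on either side as follows. On the side of Hoxb13, no peak lay in the 28.9 kb to Ttll6, which encodes an enzyme that adds glutamate to tubulin. The peak from 96133322 to 96134049 covered the Ttll6 start with a fold enrichment of 10.44, and another lay 6253 bp upstream of it with 9.46. Between Calcoco2, which encodes an autophagy receptor, and Atp5g1, which encodes a subunit of ATP synthase, the peak from 96093143 to 96094008 reached 14.36, the highest of the flanks, and 50.2% of its bases were marked as repeats, the highest share of the 15 peaks. A peak in an exon of Atp5g1, 2877 bp from its start, was enriched 6.53-fold, and its −log10 p-value of 5.257 was the lowest of the window. Ube2z was 6912 bp from that peak. By the start of their gene records, Snf8, Gip and Igf2bp1 had no peak within 10 kb (37415, 43023 and 24418 bp). An annotated transcript of Igf2bp1 started 1072 bp from a peak.

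On the side of Hoxb1, 1 peak stood in the 96.3 kb to Skap1, which encodes an adaptor protein of T cells. It ran from 96438532 to 96439337, 25256 bp upstream of the Skap1 start, and was enriched 13.05-fold (−log10 p-value 19.871). Introns of Skap1 held peaks of 13.38 and 9.46, at 71412 and 88247 bp from its start. The nearest peaks outside the window were 12.8 kb before it (8.81) and 13.6 kb after it (8.16), so a somewhat wider window would have taken both. By their midpoints, 9 of the 15 peaks were intergenic, 4 in introns and 2 in exons. The same split over the whole list was not determined.

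By height the Hoxb peaks were ordinary members of the list. Their fold enrichment ran from 6.53 to 15.34 with a median of 9.90, against 10.1 over all peaks and 10.4 over Chromosome 11. Inside the span the median was 9.36, and 3 of the 8 peaks stood above that of the list, those of 15.01, 14.03 and 15.34. The same 3 were the span peaks left in the list of 9472. The widths ran from 494 to 887 bp with a median of 728 bp, where the list had 715 bp.

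The core CTCF motif without a mismatch was found in 3 of the 15 peaks (20%, 95% Wilson interval 7.05% to 45.2%), where 35.6% of all peaks held it. Within the span it was found in 1 of 8, the peak between Hoxb9 and Hoxb8, and in the flanks in the peak between Atp5g1 and Calcoco2 and in the one between Hoxb1 and Skap1. When only the central 200 bp of each peak were searched, the count was again 3, and 32.6% of all peaks held it there. With 1 mismatch allowed the count was 11 of 15 (73.3%, 48.0% to 89.1%), against 83.6% of all peaks. By the weight matrix, 8 of the 15 peaks held a site above 15.13 bits (53.3%, 30.1% to 75.2%), a limit passed by 5% of windows 10 kb from peaks and by 69.9% of all peaks. In the span 3 of 8 passed (37.5%, 13.7% to 69.4%). Each of these intervals includes the share of the whole list except that for the span by the matrix, whose upper bound of 69.4% was just under 69.9%. That share of 69.9% includes the peaks from which the matrix was learned, and the Hoxb peaks were not among them, so the comparison is not an even one. The peak in Hoxb6 missed the limit narrowly at 15.11 bits. The matrix was added after the exact search had been seen.

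Inside the cluster, height and motif score did not go together. The 3 span peaks with the highest fold enrichment had their best sites below the limit, at 12.13 bits for the peak at Hoxb5 (fold enrichment 15.34), 13.64 for the third peak between Hoxb13 and Hoxb9 (15.01) and 12.86 for the peak in Gm53 (14.03). The 3 span peaks above the limit had low fold enrichments, 22.30 bits with 6.53, 16.13 bits with 8.16 and 17.79 bits with 6.85. Over the whole list, 74.7% of the peaks with a fold enrichment of 14 or more passed the limit and 68.5% of those under 14, and the medians were 18.02 and 17.41 bits. The value of 14 was chosen after the peaks had been seen. The last peak of the span, between Hoxb5 and Hoxb4, had no site above 5.38 bits, and what its signal rests on was not tested. The best site lay near the middle in each of the 15 peaks, at most 118 bp from the midpoint, as in 93.3% of all peaks within 120 bp, with medians of 44.5 and 29.5 bp.

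**Figure D3:**
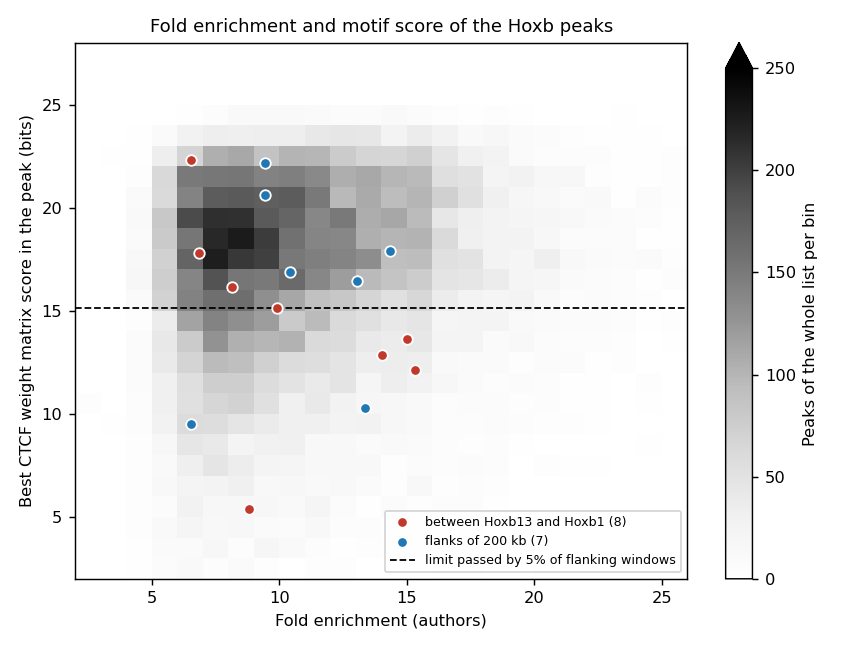
Fold enrichment of CTCF peaks (x axis, authors' values) and the best CTCF weight matrix score in each peak in bits (y axis). Red points are the 8 peaks between Hoxb13 and Hoxb1, blue points the 7 peaks of the flanks, grey cells the number of peaks of the whole list, and the dashed line the limit of 15.13 bits. Fold enrichments over 26 and scores under 2 are outside the axes. The 3 red points on the right, at 14.03 to 15.34, lie under the line.

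The best matches between Hoxb13 and Hoxb9 all pointed the same way, and those after Hoxb9 were mixed. Only 3 sites of the span passed the limit, too few to show a change of direction at Hoxb9. In the 4 peaks between Hoxb13 and Hoxb9 each best site was on the minus strand, against the direction of Hoxb transcription, and 2 of these passed the limit of the matrix. In the 4 peaks from Hoxb9 to Hoxb4 the strands were plus, minus, plus and plus, of which the first alone passed. Over the window the 8 sites above the limit were 3 on the plus strand and 5 on the minus strand. Past the Hoxb1 end, the peak before Skap1 had its site on the plus strand (16.45 bits) and the last peak in Skap1 on the minus strand (22.16 bits). Directions of sites below the limit are uncertain, because a weak best match may not be the bound site. The flanking sites above the limit were these, in the order of the chromosome and with the core in capitals.
Between Atp5g1 and Calcoco2, plus strand, chr11:96093506-96093557: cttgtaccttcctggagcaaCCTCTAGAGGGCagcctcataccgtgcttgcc
Upstream of Ttll6, minus strand, chr11:96127119-96127170: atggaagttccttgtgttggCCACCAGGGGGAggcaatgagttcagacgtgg
At the Ttll6 start, minus strand, chr11:96133671-96133722: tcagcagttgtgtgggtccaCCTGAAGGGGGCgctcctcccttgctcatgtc
Between Hoxb1 and Skap1, plus strand, chr11:96438930-96438981: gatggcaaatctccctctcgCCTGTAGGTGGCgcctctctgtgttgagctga
In Skap1, minus strand, chr11:96553326-96553377: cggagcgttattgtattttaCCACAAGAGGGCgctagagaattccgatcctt

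The window also held core motif sites that were not called as peaks. Of its 7 sites without a mismatch, 3 lay in a peak (42.9%, 95% Wilson interval 15.8% to 75.0%), where 30.3% of the 22944 sites on Chromosomes 1 to 19 and X did. Inside the span there were 3 sites, of which 1 was in a peak. The site in Hoxb3 scored 19.37 bits, more than any site under a span peak but that of 22.30 bits, and was 34.1 kb from the nearest peak. The other uncalled site of the span was 3.73 kb from the peak in Gm53, beside Mir196a-1, and scored 15.82 bits. The site in Ttll6 scored 16.81 bits, and the one upstream of Gip 10.35 bits. None of the 4 cores lay wholly in bases marked as repeats. A site outside a peak shows only that no peak was called there in this library. The uncalled sites of the span are given for comparison with the best sites in the span peaks above.
Beside Mir196a-1, minus strand, chr11:96265855-96265906: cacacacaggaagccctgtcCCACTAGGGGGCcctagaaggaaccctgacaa
In Hoxb3, minus strand, chr11:96346175-96346226: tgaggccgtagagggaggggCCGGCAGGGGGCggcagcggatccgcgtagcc

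Base composition set some of the span peaks apart from the list. The ratio of observed to expected CpG was above 0.5 in 4 of the 8 span peaks, where 11.9% of all peaks were, namely the peak in Gm53 (0.56), the one between Hoxb9 and Hoxb8 (0.572), that in Hoxb6 (0.558) and that at Hoxb5 (0.718). The limit of 0.5 was not planned in advance. The median of the span was 0.457 and that of the list 0.25. The share of G and C ran from 32.0% to 55.3% in the span, with a median of 51.4% against 47.0% over all peaks. Bases marked as repeats had a median share of 9.14% in the span and 14.2% over all peaks. CpG content is high in Hox clusters as a whole, so a raised ratio was not particular to Hoxb. The span peaks of Hoxa, Hoxc and Hoxd had higher median ratios than those of Hoxb, at 0.65, 0.509 and 0.576. Whether the Hoxb peaks differ from the sequence around them was not tested.

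The other Hox clusters were set beside Hoxb with windows made in the same way. The span densities were 28.5 peaks per Mb in Hoxa (3 peaks, exact 95% Poisson interval 5.88 to 83.3), 25.9 in Hoxc (3 peaks, 5.34 to 75.7) and 41.3 in Hoxd (4 peaks, 11.3 to 106.0). The interval of each of these spans overlapped that of the Hoxb span (19.9 to 90.6). Over the windows, Hoxa held 5 peaks (9.90 per Mb, 3.21 to 23.1), Hoxc 14 (27.1, 14.8 to 45.5) and Hoxd 7 (14.1, 5.66 to 29), beside the 15 of Hoxb (26.1, 14.6 to 43.1). The Hoxa interval overlapped that of Hoxb but ended below the Hoxb value of 26.1, and the difference was not tested. The median fold enrichment of the span was 15.3 in Hoxa, 6.85 in Hoxc and 8.16 in Hoxd, beside 9.36 in Hoxb. None of the 10 span peaks of these clusters held the core motif without a mismatch. The 3′ end of the span was without a peak over 56.1 kb in Hoxb, 55.8 kb in Hoxa, 48.8 kb in Hoxd and 22.9 kb in Hoxc. At the 5′ end the stretch before the first peak was 29.2 kb in Hoxb, 19.9 kb in Hoxa, 4.47 kb in Hoxd and 45.1 kb in Hoxc, so in Hoxc the 5′ end was the longer one.

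**Figure D4:**
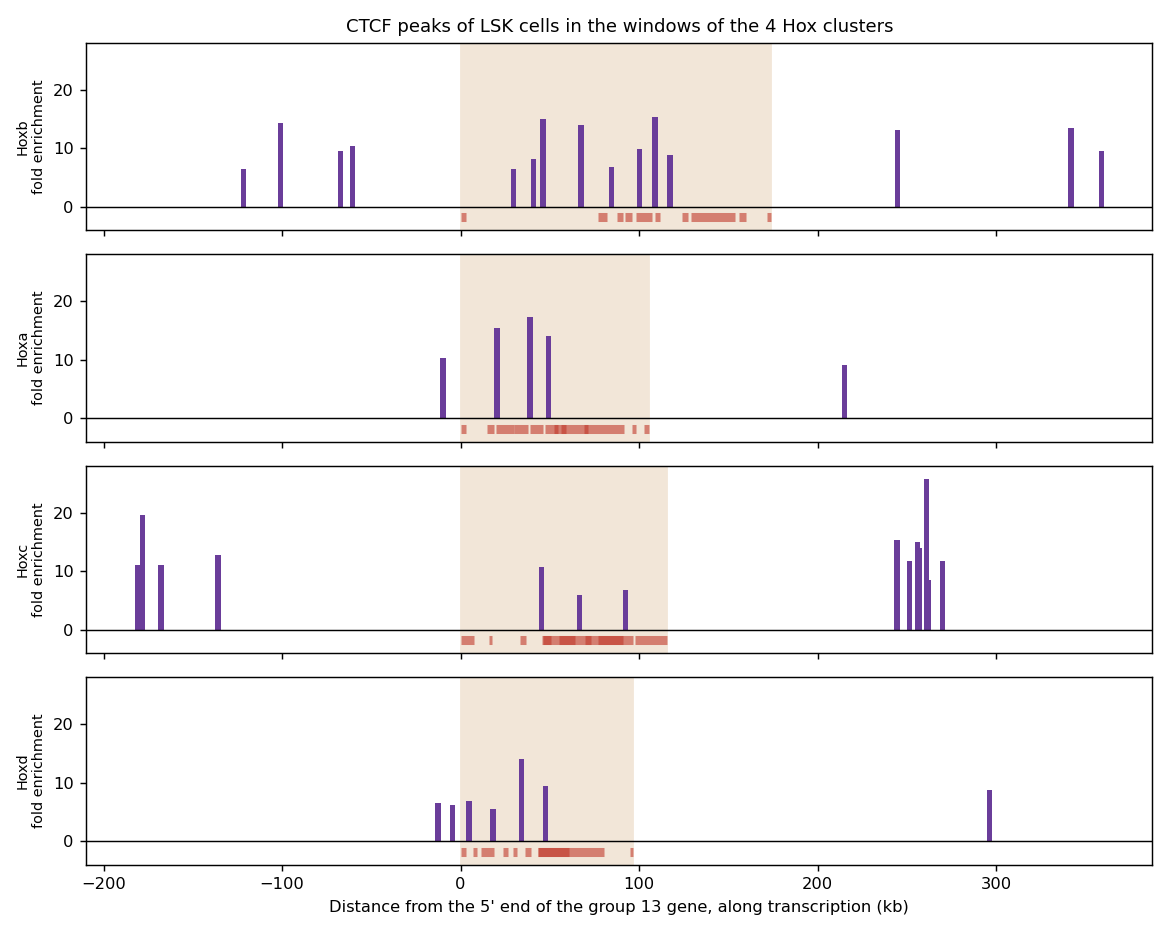
CTCF peaks of LSK cells in the windows of the 4 Hox clusters, with the distance from the 5′ end of the group 13 gene along the direction of transcription in kb on the x axis and deposited fold enrichments on the y axis. Purple bars are peaks, drawn wider than they are, red lines are Hox genes, and the shaded part is the span of the cluster. Each window ends 200 kb from its span. The span of Hoxb holds 8 peaks and those of Hoxa, Hoxc and Hoxd hold 3, 3 and 4, and the last peak before the 3′ end is 56.1 kb from it in Hoxb and 22.9 kb in Hoxc.

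Hox genes of the 4 clusters fall into numbered groups of paralogues, so the peaks could be placed by the 3′ ends of the genes on either side. A peak between the 3′ ends of groups 9 and 8 was found in Hoxb (6.85), Hoxc (5.87) and Hoxd (14.03), and Hoxa, which has no group 8 gene, had one between groups 9 and 7 (17.29). In all 4 the best site pointed in the direction of Hox transcription. The other span sites of Hoxa, Hoxc and Hoxd did so too, except those between groups 7 and 6 of Hoxa and groups 13 and 12 of Hoxd. The direction therefore did not set the place between groups 9 and 8 apart. The Hoxb site passed the limit of the matrix at 17.79 bits and the Hoxd site at 16.39 bits, but those of Hoxa (14.76) and Hoxc (12.18) did not. Between groups 7 and 6, the peak in Hoxb6 (9.90) had a counterpart in Hoxa (14.03). Between groups 6 and 5, the peak at Hoxb5 (15.34) had one in Hoxc (6.85) but none in Hoxa, which has both groups. The peak between Hoxb5 and Hoxb4 (8.81) had no counterpart in Hoxa or Hoxc, which have both of its groups. In Hoxd a peak between groups 8 and 4 (9.46) could not be placed more closely. The 4 peaks between Hoxb13 and Hoxb9 had none that could be placed, because the B cluster lacks groups 10, 11 and 12. The sites between groups 9 and 8 of the other clusters were these, oriented by the motif and with the core in capitals, for comparison with that of Hoxb.
Hoxa, between Hoxa9 and Hoxa7, chr6:52221789-52221840: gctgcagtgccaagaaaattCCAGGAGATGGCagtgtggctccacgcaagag
Hoxc, between Hoxc9 and Hoxc8, chr15:102987573-102987624: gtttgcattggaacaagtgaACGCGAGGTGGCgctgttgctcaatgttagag
Hoxd, between Hoxd9 and Hoxd8, chr2:74702375-74702426: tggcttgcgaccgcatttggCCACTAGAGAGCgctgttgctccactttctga
Without gaps, the Hoxb sequence shared 22 of 52 bases with that of Hoxa, 28 with that of Hoxc and 24 with that of Hoxd. Over all 80 pairs of a Hoxb site with a site of another cluster the count ran from 15 to 28 with a median of 21. Within the core, 9 of the 12 bases were shared in each of the 3 pairs, but this Hoxb site shared from 7 to 10 core bases with the sites of the other clusters that lay elsewhere, so the count did not set the place apart.

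Genes that act with Hox proteins or control Hox genes were examined as a list of 22, which holds the Meis, Pbx and Pknox cofactors, the Cdx factors, Polycomb and Mll components and retinoic acid receptors. Of these, 6 had a peak within 10 kb of the start site (27.3%, 95% Wilson interval 13.2% to 48.2%), close to the 29.3% of all protein-coding genes. They were Dot1l (fold enrichment 17.29), a histone methyltransferase of active genes, Rara (13.05), a retinoic acid receptor, Meis1 (9.79), a cofactor of Hox proteins in stem cells, Men1 (9.46), a partner of Mll, and the homeobox genes Cdx1 and Cdx2 (9.14 each). For 7 genes the nearest peak was over 50 kb away, among them Bmi1 (471384 bp), Ezh2 (198835 bp) and Pbx3 (269072 bp).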

How the data were processed

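CTCF ChIP-seq of LSK cells from 1 library was used. Per the study's methods, the authors mapped reads to mm10 with multiply mapping reads allowed and called peaks with MACS. The submitters' processing notes name Bowtie 1.0.0, the study's methods name another version of Bowtie, and the difference was not resolved. The study pairs this library with the LSK input, but the MACS settings, and whether that input entered the peak calls, were not stated. The deposited peak list has no header: its columns were read as a fold enrichment (a linear ratio), a p-value as −log10, and a q-value (false discovery rate) on an unstated scale, used here to rank peaks. Multiply mapped reads could add signal in duplicated sequence.

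Genes came from GENCODE M21 and bases from GRCm38.p6, which shares its chromosome coordinates with mm10. Coordinates are 1-based. Work was done in Python 3.11.15 with numpy 2.4.6, pandas 2.3.3 and scipy 1.17.1. The start site was the 5′ end of the gene record. The core CTCF motif, the 12-base consensus known for this factor, was searched on both strands. The weight matrix used sites with at most 1 mismatch within 50 bp of a peak midpoint. Motif search and distances were tested on simulated data. Intervals cover counting error only. Genes named were the 10 Hoxb genes, the noncoding genes in the span, the coding genes of the window, the genes beside peaks in the other Hox clusters and, of the cofactor list, up to 6 with the strongest peak within 10 kb and up to 4 without one within 50 kb. The members and lists were chosen with earlier results of these data known. Some sequences and 1 gene of the cofactor list are not reported here.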

Additional observations from a re-analysis of the deposited data

How the results depend on the processing

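The number of Hoxb peaks depended on the threshold of the list. Cut to 9472 peaks by false discovery rate, the list had fewer members here: the window held 9 peaks (15.7 per Mb), the span 3, and 2 Hoxb genes had a peak within 10 kb. With peaks at or above the median fold enrichment, these values were 7 peaks (12.2 per Mb), 3 and 2. Both settings use fewer peaks by construction. At 1 kb, 1 Hoxb gene had a peak. Peaks with the core motif numbered 11 with 1 mismatch, 8 by the weight matrix, an alternative chosen once the data had been seen, and 8 with a flank of 400 kb, and motif sites in peaks numbered 16 with 1 mismatch. More matches follow from a looser motif, and more peaks from a wider flank. A count that stayed within 1.5 times its main value was read as unchanged, and so was the median fold enrichment when it stayed within 8.16 to 14.03. By these limits 13 alternatives moved a value and 21 did not, and none reversed one. The 21 do not measure robustness, since some could hardly move. Merging peaks less than 1 kb apart, or asking for at least 50% of a peak inside, left 15 window and 8 span peaks. The median fold enrichment rose from 9.90 to 13.4 in the list of 9472. With peaks at or above the median it came close to 14.03. Core motif peaks and sites in peaks fell from 3 to 2 in both lists, at the edge of the factor of 1.5. The list is of 1 library and holds no read counts, and what a deeper library would call was not tested. No paired analysis was possible because values exist for a single library, so nothing was tested between groups and no replicate could be left out.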
